A study of Drosophila melanogaster with 3 samples.

Results

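The strongly occupied sites described here are the 300 peaks of ranks 21 to 320 by signal among the 4187 reproducible peaks (7.17%) of CG12219 in fly embryos. They come from chromatin immunoprecipitation followed by sequencing (ChIP-seq) of whole Drosophila melanogaster embryos, male and female together, aged 0 to 18 h. The embryos belong to 1 transgenic line that stably expresses CG12219 with a GFP tag at its C-terminus, and the labels name CG12219 as the antibody's target. There is 1 group with 3 biological replicates, and no embryo without the tag was used here. A free-text line of the labels describes the samples as input, whereas their assay, antibody and peak lists are those of immunoprecipitated chromatin, and they are treated as such.

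The members were selected on signal, the authors' own value per peak, computed on the pool of the 3 replicates and deposited without a stated scale. Signal therefore ranks peaks within the list and supports nothing further. The peak just outside the upper limit, at Gapdh2, had a signal of 2200.3, and the first member, in CG32772, had 2189. The last member, at RpL14, had 779, and the next peak below it, at Fer2LCH, had 778. The limits thus fall in a continuous series of values. Every member is included below and none was filtered out. The depth of the libraries is unknown, because the files hold no read counts.

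A ChIP-seq peak marks DNA that was recovered together with the tagged protein, and its summit is the position of highest recovery. A transcription start site (TSS) is the base at which a transcript begins. Many regulatory proteins are recovered just upstream of it, in the promoter, or at enhancers within introns and between genes. CG12219 is named by its annotation number, and RefSeq lists its product as an uncharacterized protein. None of the 4187 summits lay within 5000 bp of the CG12219 gene itself.

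The summits of the members lay in A+T-rich DNA. The following 101-bp stretches, centred on the summits of the leading members (plus strand, dm6, RefSeq genome), are shown because they carry this composition in introns and promoters alike, and the last because it departs from it. They lie in introns of CG32772 (chrX:4910314-4910414, rank 21), of NFAT, which encodes a transcription factor of the NFAT family (chrX:13640453-13640553, rank 23), and of Trl, which encodes GAGA factor (chr3L:14759461-14759561, rank 25). Those upstream of start sites are at CG1635 (chr3R:31588474-31588574, rank 27) and at RluA-1, a pseudouridine synthase gene (chr2L:10474474-10474574, rank 29). The last lies between genes near lncRNA:CR45643 (chr3R:16222432-16222532, rank 31). Their A+T content was 68.3%, 70.3%, 67.3%, 77.2%, 76.2% and 51.5% in this order.
CG32772: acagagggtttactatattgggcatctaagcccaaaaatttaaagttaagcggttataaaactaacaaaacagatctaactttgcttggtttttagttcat
NFAT: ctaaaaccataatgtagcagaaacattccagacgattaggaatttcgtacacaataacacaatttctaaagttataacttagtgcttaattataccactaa
Trl: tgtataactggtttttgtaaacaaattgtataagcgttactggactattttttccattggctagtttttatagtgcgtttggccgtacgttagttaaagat
CG1635: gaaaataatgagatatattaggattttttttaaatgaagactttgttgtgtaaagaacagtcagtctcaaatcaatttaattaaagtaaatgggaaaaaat
RluA-1: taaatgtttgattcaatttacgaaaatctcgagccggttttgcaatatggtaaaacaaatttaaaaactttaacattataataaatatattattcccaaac
lncRNA:CR45643: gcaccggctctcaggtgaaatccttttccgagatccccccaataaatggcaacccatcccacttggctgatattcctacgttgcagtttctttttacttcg

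Across all 300 members the median A+T content within 50 bp of the summit was 69.3%, with quartiles at 64.4% and 74.3%. The 3867 reproducible peaks ranked after them, called the lower-ranked peaks below, had a median of 66.3% and quartiles at 58.4% and 71.3%. The members at start sites had a median of 70.3%, against 64.4% for the lower-ranked peaks at start sites. In the 300 peaks next in rank the median was also 69.3%. The composition changed with distance from the summit. Mean A+T content of the members was 68.5% within 50 bp of the summit and 54.5% at 100 to 150 bp on both sides, while that of the lower-ranked peaks was 64.6% and 57.9%. No test was made of these values.

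Away from this centre, a second feature of the members was the sequence GAGAG (or CTCTC, its reverse complement), the letters of the element that GAGA factor is known to bind. The share of members that held it was 6.33% (19 of 300) within 50 bp of the summit, 19.7% at 50 to 100 bp, 31.0% at 100 to 150 bp and 39.0% (117 of 300, exact binomial 95% interval 33.4 to 44.8%) at 150 to 200 bp. Further out it was 26.7% at 200 to 250 bp and 15.7% at 350 to 400 bp. Among lower-ranked peaks the share ran between 12.6% and 20.8% over the same distances and was 18.6% (interval 17.4 to 19.8%) at 150 to 200 bp. In the 300 peaks next in rank it was 8% within 50 bp, 19.3% at 50 to 100 bp, 28.7% at 100 to 150 bp and 24.3% at 150 to 200 bp. The rise away from the summit was thus shared by these peaks up to 150 bp. They differed most from the members at 150 to 200 bp. Members were thus below the lower-ranked peaks at the summit and above them at the flank.

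The replicates showed a similar course when each was ranked by its own signal, except that replicate 1 was slightly higher at 100 to 150 bp (30.7%) than at 150 to 200 bp. Among calls of ranks 21 to 320 of their own lists, 30%, 39.7% and 31.7% of those of replicates 1, 2 and 3 held GAGAG at 150 to 200 bp, or 33.8% ± 5.2 (SD, n = 3). Among the calls ranked after these, down to rank 4187, the 3 replicates gave 18.9%, 19.8% and 18.6%, or 19.1% ± 0.636 (SD, n = 3). The groups of replicate values did not overlap. Within 50 bp of the summit the order was the opposite, 7.0% ± 1.9 against 13.7% ± 3.0 (SD, n = 3), and there the groups did not overlap either. The next 300 ranks alone did overlap with ranks 21 to 320 there. In windows of 50 bp on either side they held GAGAG in 13.7%, 7.33% and 12% of calls, against 8.67%, 5.33% and 6.67%. These distances were chosen after the values were seen and have no test of their own. The replicates make up the pool, so their values are not independent of the pooled ones.

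**Figure D1:**
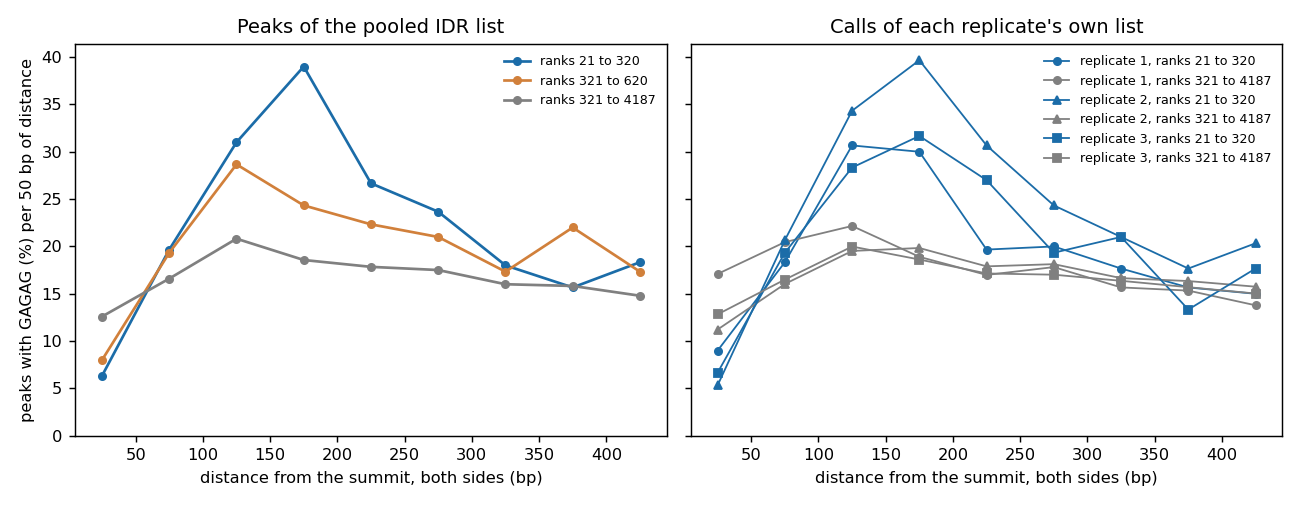
Percent of peaks that hold GAGAG or CTCTC in each 50-bp step of distance from the summit, both sides joined. Left, peaks of the pooled reproducible list; right, calls of each replicate's own list, one line per replicate. The strong peaks start lowest at the summit (6.33% in the pooled list) and stand highest at 150 to 200 bp (39.0%).

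The flanking element appeared in every main class of site. At 150 to 200 bp it was held by 77 of 175 members at start sites (44.0%, against 20% of lower-ranked peaks at start sites), by 29 of 92 in introns (31.5% against 18.7%) and by 10 of 27 between genes (37% against 15%). For the 148 members whose summit lay upstream of its start site, it stood in similar counts on the side facing away from the gene (25%, against 9.60% of 1187 lower-ranked peaks) as on the side facing it (26.4% against 12.5%). Base composition moved with it: at 150 to 200 bp members had a mean A+T content of 54.8% and lower-ranked peaks 57.2%, and the part of this difference in the result was not tested. The members of ranks 23, 24, 25 and 26, at NFAT, chif, Trl and CG5611, were the first to carry it. The 300-bp stretches of NFAT (chrX:13640303-13640602) and CG5611 (chr3R:27636066-27636365), plus strand, dm6, RefSeq, show the arrangement, with GAGAG and CTCTC in capitals. The summit is base 201 in the first and base 100 in the second.
NFAT: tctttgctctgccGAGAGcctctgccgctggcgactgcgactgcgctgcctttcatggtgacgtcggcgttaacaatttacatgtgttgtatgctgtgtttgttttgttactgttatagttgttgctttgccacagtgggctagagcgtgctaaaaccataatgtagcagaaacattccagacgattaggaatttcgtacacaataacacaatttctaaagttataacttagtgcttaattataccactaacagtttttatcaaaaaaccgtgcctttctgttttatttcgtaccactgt
CG5611: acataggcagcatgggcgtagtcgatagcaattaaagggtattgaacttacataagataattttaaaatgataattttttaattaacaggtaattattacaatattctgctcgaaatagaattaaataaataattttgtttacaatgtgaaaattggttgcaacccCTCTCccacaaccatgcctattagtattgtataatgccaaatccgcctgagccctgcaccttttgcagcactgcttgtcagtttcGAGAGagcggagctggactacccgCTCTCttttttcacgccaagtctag

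A search of 28 motifs within 100 bp of the summit, on either strand, found none that set the members apart. None passed Fisher's exact test (two-sided, Benjamini-Hochberg adjusted over the 28), none had an unadjusted p under 0.05, and the lowest unadjusted p was 0.0640. That was for CCGGAAG, the letters of an ETS site, in 6 members (2%) against 0.879% of lower-ranked peaks and 0.700% of 19276 windows of equal length placed 160 bp upstream of annotated protein-coding start sites. GAGAG itself was held by 24.0% of members, 25.5% of lower-ranked peaks and 24.7% of those promoter windows (Fisher's exact test, adjusted p = 0.906). Within 50 bp it was lower in members, 6.33% against 12.5% (adjusted p = 0.0327, Fisher's exact test), and within 200 bp higher, 58.7% against 48.7% (adjusted p = 0.0134). Members were also richer in A+T within 50 bp, with a mean of 68.5% against 64.6%. The part of composition in the difference there was not tested. The 300 peaks next in rank were close to the members at the summit, with GAGAG at 8% within 50 bp. In the replicates' own lists, ranks 21 to 320 held it within 200 bp in 56.3%, 61% and 55% of calls, and the next 300 ranks in 56.7%, 50.3% and 55.3%, so these groups overlapped. Of the other motifs, 1 passed within 200 bp, the E-box CAGCTG, in 28% of members against 19.5% (Fisher's exact test, adjusted p = 0.0134). CAGCTG was also commonest away from the summit, in 12.7% of members at 100 to 150 bp, against 6.65% of lower-ranked peaks. The 300 peaks next in rank held it in 6.33% there and in 9.33% at 150 to 200 bp, where members had 9%. The distance was chosen after the values were seen, and the part of base composition was not tested.

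The other motifs searched were promoter elements, E-boxes, sites of named regulators and A+T-rich runs. Promoter elements were the TATA box TATAAA (36.0% of members, 33.5% of lower-ranked peaks, 31.7% of promoter windows), the initiator TCAGT, the TCT-type element CTCTTT, the DRE given by TATCGATA, the BEAF half-site CGATA that it contains, and the Motif 1 core GGTCACAC. The E-boxes besides CAGCTG were CACGTG, with CACATG and also CATATG. Regulator sites were those of Zelda (CAGGTAG), zinc finger factors of the GATA family (TGATAA), the insulator protein CTCF (AGNNGGCGC), Su(Hw) (GCATACTT), the CRE (TGACGT), the bZIP dimers known as AP-1 (TGANTCA), heat shock factor (GAANNTTC), homeodomain factors (TAATTA), Bicoid (TAATCC), the Notch effector Suppressor of Hairless (GTGGGAA), signal transducers of the STAT type (TTCNNNGAA), the Dpp effector Mad (GGCGCC) and proteins of the octamer type (ATGCAAAT). The Zelda letters stood in 1 member (0.333%) against 1.03% of lower-ranked peaks. The A+T-rich runs were the A-tract AAAAAA, the repeat TATATA and the palindrome AATATT, the last in 33.0% of members and 28% of lower-ranked peaks (Fisher's exact test, adjusted p = 0.881).

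A search of all 8-mers gave 1 that passed. The 10 with the largest excess in members of odd rank were tested in members of even rank against lower-ranked peaks of even rank. AAATATTC (reverse complement GAATATTT), which contains AATATT, stood within 50 bp of the summit in 10 of 150 even-ranked members (6.67%, exact binomial 95% interval 3.24 to 11.9%) and in 35 of 1933 lower-ranked peaks (1.81%; Fisher's exact test, two-sided, adjusted p = 0.00986). With odd and even ranks exchanged the values were 7.33% and 1.55% (Fisher's exact test, adjusted p = 8.94e-04). All annotated promoter windows held it in 1.69% of cases. No 8-mer passed among peaks at start sites alone, where AAATATTC was found in 4.71% of even-ranked members against 1.70%. Between 65 and 80% A+T, the difference was 7.55% against 1.90%. With 6-mers in place of 8-mers, 1 passed, ATTTAA, which is not part of AAATATTC. It stood in 37.3% of even-ranked members against 24.5% (Fisher's exact test, adjusted p = 0.00862). AAATAT, which is part of it, did not pass, at 40.7% against 30.7% (Fisher's exact test, adjusted p = 0.0675).

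The 21 members with AAATATTC were 10 at start sites, 7 in introns and 4 between genes. The share was 4.67% in the first 150 members, 9.33% in the other 150, and 2.67% in the 300 peaks next in rank. Of the 20 peaks ranked before the members, 0 held it. In each replicate's own list, ranks 21 to 320 held it in 4.33%, 6.33% and 5.00% of calls. Later ranks down to 4187 held it in 1.34%, 2.09% and 1.86%, so these groups did not overlap. The 8-mer was chosen on the pool of these replicates. Their own first 320 calls held 78.7%, 86% and 87.3% of the members, so these values are not independent of that choice. The next 300 ranks alone held the 8-mer in 3.33%, 3.67% and 4.33%, which touches the lowest value of ranks 21 to 320. The 3 sequences shown, with the 8-mer in capitals, are from members of high rank that have it, in a promoter, near a tRNA gene and in an intron. They are at CBP, a calcium-binding protein gene (chrX:7337005-7337105, rank 54), at tRNA:Tyr-GTA-1-8 (chr3R:8669331-8669431, rank 59) and in an intron of trx, a histone methyltransferase gene of the trithorax group (chr3R:14283837-14283937, rank 82).
CBP: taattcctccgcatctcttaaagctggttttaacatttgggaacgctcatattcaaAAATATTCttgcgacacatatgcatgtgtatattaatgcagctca
tRNA:Tyr-GTA-1-8: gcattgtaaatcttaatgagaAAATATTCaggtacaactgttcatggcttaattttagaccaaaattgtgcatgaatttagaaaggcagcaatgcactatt
trx: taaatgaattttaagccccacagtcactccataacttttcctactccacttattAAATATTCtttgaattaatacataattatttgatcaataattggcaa

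The 8-mer was not fixed at the summit. Within the 50 bp searched on either side, its centre ran from 43 bp to the left to 46 bp to the right. It lay within 25 bp of the summit in 12 of the 21 members, and 11 matches were on the plus strand. In these 3 members its centre stood 10 bp to the right of the summit, 25 bp to the left and 8 bp to the right on the plus strand.

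Start sites were the main location. A summit lay within 500 bp of a TSS in 175 of 300 members (58.3%, exact binomial 95% interval 52.5 to 64.0%) and in 1623 of 3867 lower-ranked peaks (42.0%; Fisher's exact test, two-sided, adjusted p = 3.06e-07 over 7 classes). Introns held 92 members (30.7% against 40.5%, adjusted p = 0.00259) and intergenic DNA 27 (9% against 14.5%, adjusted p = 0.0173, Fisher's exact test). Against the 300 peaks next in rank the intron difference was −6 points (adjusted p = 0.496) and the intergenic one −1.33 points (adjusted p = 1), and neither passed Fisher's exact test. The intergenic difference also did not pass without replicate 2, with a TSS window of 250 bp or with protein-coding start sites alone (Fisher's exact test, adjusted p = 0.0736, 0.369 and 0.0856). The change was gradual along the list. The 300 peaks next in rank included 51% at a start site, and the members' excess of 7.33 points over them did not pass (Fisher's exact test, adjusted p = 0.496). Peaks of 1 list are not replicates of embryos, so each p compares groups of peaks. In the replicates' own lists, ranks 21 to 320 lay at a TSS in 54.0%, 58.3% and 58.0% of calls (56.8% ± 2.4, SD, n = 3). Later ranks down to 4187 did so in 44.7%, 41.4% and 41.2% (42.4% ± 1.9, SD, n = 3). These lists share most members, 188 of the 300 being among the first 320 calls of all 3. The SDs thus describe 3 rankings of largely the same sites.

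**Figure D2:**
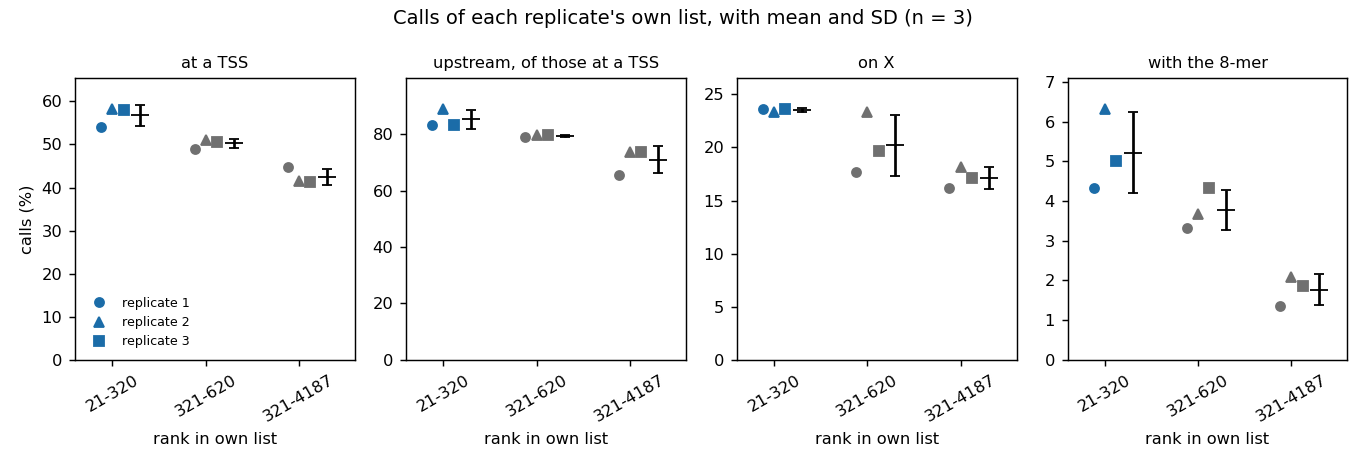
Percent of calls at a TSS, upstream of it (of those at a TSS), on X and with the 8-mer AAATATTC, by rank in each replicate's own list. Symbols are replicates, whose lists share most members, and bars show the mean ± SD (n = 3). In all 4 panels the replicate values at ranks 21 to 320 lie above those at the ranks down to 4187, while on X and for the 8-mer they meet those of the next 300 ranks (23.3% on X in replicate 2 in both).

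At start sites the summits gathered upstream. Of the 175 members at a TSS, 148 (84.6%) lay upstream of it, against 73.1% of lower-ranked peaks at start sites (Fisher's exact test, two-sided, adjusted p = 0.00109). The median position was 160 bp upstream for members and 103 bp upstream for lower-ranked peaks, and 99 members (56.6%, against 32%) lay between 250 and 100 bp upstream. A summit within 50 bp of the TSS was rare, in 11 members (6.29%) against 306 lower-ranked peaks (18.9%; Fisher's exact test, adjusted p = 2.60e-05). Start sites of different genes pointing away from each other within 500 bp of the summit were found at 22.3% of members and 27.4% of lower-ranked peaks, a difference that did not pass (Fisher's exact test, adjusted p = 0.152). Among peaks of 65 to 80% A+T the upstream excess was 4.22 points (adjusted p = 0.295) and the deficit within 50 bp was −5.45 points (adjusted p = 0.0701), and neither passed Fisher's exact test. Against the 300 peaks next in rank they were 1.56 points (adjusted p = 0.764) and −8.09 points (adjusted p = 0.0510), and neither passed Fisher's exact test there either. Without replicate 2 the deficit within 50 bp was −7.70 points, against −12.6 with all replicates.

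**Figure D3:**
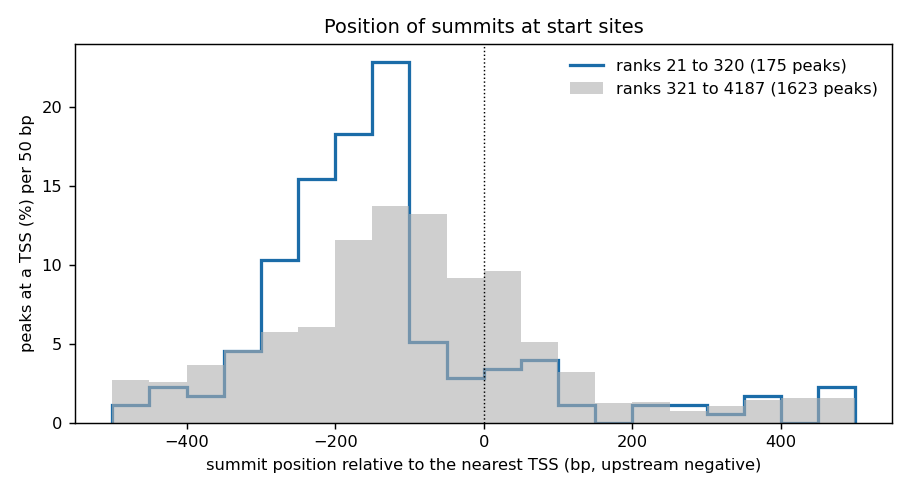
Position of summits relative to the nearest start site, as percent of the peaks at a TSS in each 50-bp step, for members (line) and lower-ranked peaks (filled). Members gather between 250 and 100 bp upstream (56.6%) and few stand within 50 bp of the TSS (6.29%).

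**Figure D4:**
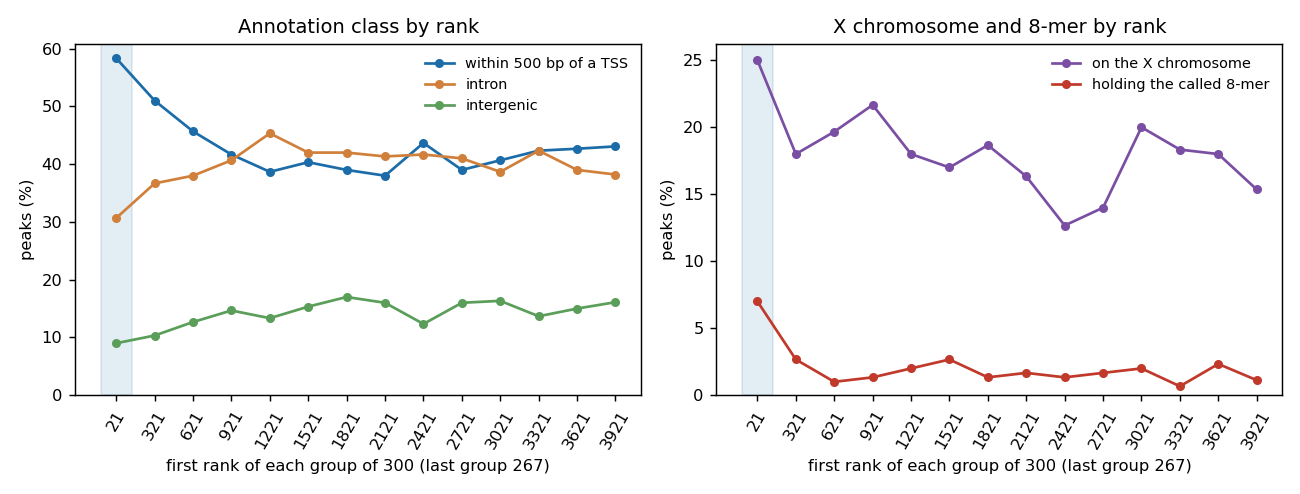
Left, percent of peaks at a TSS, in introns and between genes in successive groups of 300 ranks (the last holds 267); right, percent on X and percent with AAATATTC. The shaded group is ranks 21 to 320, where the share at a TSS is 58.3%, with 51% and 45.7% in the next groups.

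The 11 members within 50 bp of a TSS were singled out after their values were seen. Their genes were the ribosomal protein genes RpS27, RpS4, RpL7, RpL31 and RpL14, the elongation factor gene eEF1gamma, the Y-box protein gene yps, the ecdysone-induced nuclear receptor gene Eip75B, Mnat9, Pyroxd1 and lncRNA:CR31840. Their median A+T content was 56.4%, against 70.3% for the members more than 50 bp from a TSS but within 500 bp of it, and 69.3% for those away from start sites. Of these 11, 9 ranked lower in replicate 2 than in the geometric mean of their ranks in replicates 1 and 3, as did 74 of the 164 other members at a TSS and 61 of 124 away from one. RpL14, for example, ranked 191, 641 and 162 in replicates 1, 2 and 3, and eEF1gamma ranked 119, 616 and 167.

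Promoter members included genes of varied function. CG5611 (3R, 27635983 to 27636333) ranked 50, 40 and 16 in the 3 replicates with its summit 105 bp upstream of the TSS. CG1635 (3R, 31588357 to 31588704) ranked 38, 24 and 40 with its summit 149 bp upstream of the TSS, and RluA-1 (2L, 10474304 to 10474691) ranked 29, 31 and 33 at 175 bp upstream. gish, which encodes casein kinase 1 gamma (3R, 16280537 to 16280933), ranked 52, 28 and 39. All 4 of these lay 105 to 175 bp upstream of their start sites. At the lower end of the set stood Uhg4, a host gene of small nucleolar RNAs, which ranked 190, 588 and 200.

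The first members below the upper limit were intronic, whereas of ranks 1 to 20 above it 15 lay at a TSS and 4 in introns. Ranks 21 to 25 were all in introns, those of CG32772 (X, 4910190 to 4910545; replicate ranks 27, 32 and 18), Reph (2L, 3804598 to 3804932; 19, 26 and 32), NFAT (X, 13640324 to 13640705; 25, 27 and 22), chif, the Dbf4-related replication gene (2L, 16351047 to 16351420; 28, 21 and 41), and Trl (3L, 14759325 to 14759714; 56, 22 and 29). Tlk, the Tousled-like kinase gene, followed at rank 33 (X, 3742038 to 3742398; 32, 42 and 27). No replicate placed any of these 6 below rank 56. Intronic members stood nearer to a start site than lower-ranked intronic peaks, with a median distance of 1585.5 bp against 2737 bp, and 32 of 92 (34.8%, against 18.8%) lay within 1000 bp of one. For the 300 peaks next in rank these values were 2049 bp and 28.2%. These distances were not tested.

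Intergenic members lay a median of 3352 bp from the nearest TSS, beside 2899 bp for lower-ranked intergenic peaks and 2006 bp for those among the 300 peaks next in rank. The strongest was near lncRNA:CR45643 (rank 31; replicate ranks 21, 46 and 24), 913 bp upstream of it. The next lay 3334 bp downstream of the TSS of CycB, the mitotic cyclin B gene (rank 32; 26, 41 and 30), and held AAATATTC. CG31668 (rank 47), DNAlig3, a DNA ligase gene (rank 76), jp, which encodes junctophilin (rank 80), and CG43131 (rank 89) were the nearest genes of the following ones.

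The remaining classes held 6 members in all. Coding sequence held 2, in an exon of Pde1c, a phosphodiesterase gene, with CycY the nearest start site (rank 169), and in an exon of otp, a homeobox gene, with Cib2 nearest (rank 219). These had the lowest A+T content of all members, 30.7% and 36.6%, and ranked 96, 340 and 119 and 122, 704 and 111 in the replicates. Noncoding exons held rank 28, in lncRNA:Vinr near lncRNA:CR44619, and rank 66, in lncRNA:CR46035 within osa, a Brahma complex gene. A 5′ UTR of Raf, the MAP kinase kinase kinase gene, held rank 228, and a 3′ UTR of stas held rank 289.

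Several genes drew more than 1 member, and 14 were the nearest gene of 2 or 3. Ptpmeg2, a protein tyrosine phosphatase gene on X, had 3 (ranks 37, 154 and 256), which lay 186, 193 and 167 bp upstream of different start sites of the gene and up to 10133 bp apart. Raf also had 3, ranks 58 and 149 in introns and rank 228 in the 5′ UTR. Pairs stood at Atf3, a bZIP factor gene (ranks 34 and 267), bves (46 and 252), for, the cGMP-dependent protein kinase gene (40 and 269), CHES-1-like, a forkhead gene (268 and 279), and sbb, a corepressor gene (86 and 103). At CBP the pair was 696 bp apart (ranks 54 and 178). Peaks of the first 20 ranks stood close to 2 members: ph-p, a Polycomb group gene, had rank 45 at 569 bp from rank 8, and cbt, a zinc finger factor gene, had rank 83 at 999 bp from rank 6. In all, 53 members (17.7%) had another reproducible peak within 1000 bp, as did 15.7% of lower-ranked peaks. Within 5000 bp the shares were 61% and 51.4%. Neither comparison was tested.

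The X chromosome held more members than its share of lower-ranked peaks. X held 75 members (25%, exact binomial 95% interval 20.2 to 30.3%) and 17.5% of lower-ranked peaks (Fisher's exact test, two-sided, adjusted p = 0.0107 over 6 chromosomes). No other chromosome passed: 2L held 20.7% against 19.3%, 2R 17.3% against 18.4%, 3L 16.7% against 21%, 3R 20% against 23.5%, and chromosome 4 held 1 member (adjusted p from 0.265 to 1). Own ranks 21 to 320 lay on X in 23.7%, 23.3% and 23.7% of calls of replicates 1, 2 and 3 (23.6% ± 0.192, SD, n = 3), against 16.1%, 18.1% and 17.1% of later ranks down to 4187. The next 300 ranks alone lay on X in 17.7%, 23.3% and 19.7% of calls, so in replicate 2 they equalled ranks 21 to 320. As for start sites, the own lists share most members, so the SD describes 3 rankings of largely the same sites. The excess on X among peaks away from start sites was 12 points (Fisher's exact test, adjusted p = 0.0121) and among peaks at start sites 5.83 points (adjusted p = 0.260), and these 2 values were not compared by a test. This split of the X result was not planned beforehand. Against the 300 peaks next in rank, of which 18% lay on X, the excess of 7 points did not pass (Fisher's exact test, adjusted p = 0.140). The embryos were of both sexes, and the number of X copies per cell in the pools is unknown.

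Counted over genes, 201 of 13968 protein-coding genes (1.44%) had a member within 500 bp of a TSS, and 1996 (14.3%) had any reproducible peak there. So 10.1% of the genes with a peak had one of these strong peaks. The gene lists below were chosen with earlier results of these data known and carry no test. Cytosolic ribosomal protein genes had a member in 5 of 86 cases (5.81%), and 68 of them had some reproducible peak, so 7.35% of those had a member, beside 10.1% over all genes. The 3 strongest were RpS27, RpS4 and RpL7, which ranked 85, 102 and 83 in replicate 1, 573, 311 and 537 in replicate 2, and 107, 163 and 151 in replicate 3. Every one of these stood lowest in replicate 2.

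The other lists of protein synthesis and energy supply had 0 to 3 genes with a member each. Shares of their genes with any reproducible peak stand beside 10.1% over all genes and rest on few genes. The share was 13.3% of 15 mitochondrial ribosomal protein genes and 11.1% of 9 oxidative phosphorylation genes. Mitochondrial ribosomal protein genes had 2 of 75, mRpL41 (rank 35; 66, 49 and 17 in the replicates) and mRpL23 (rank 105; 86, 149 and 66). Translation factor genes had 3 of 54, namely eIF6, eEF1gamma and eIF4EHP, which encodes a cap-binding translational repressor. The member at eIF6 (rank 48, replicate ranks 24, 77 and 37) was nearest to asRNA:CR45928. That at eIF4EHP (rank 138, replicate ranks 224, 84 and 262) was nearest to CG18428. The 3 genes were 21.4% of the 14 translation factor genes with any reproducible peak. With the nearest TSS only, 1 of 11 such genes had a member (9.09%, beside 10.4% over all genes). Glycolytic enzyme genes had 2 of 14 (28.6% of the 7 with any peak), the hexokinase gene Hex-A (rank 102; 198, 51 and 243) and the enolase gene Eno (rank 212; 387, 154 and 365). Both glycolytic members ranked highest in replicate 2, the reverse of the ribosomal protein genes. Composition differed too: Hex-A had 76.2% A+T, and RpS27, RpS4 and RpL7 had 50.5%, 44.6% and 41.6%. Ranks in replicate 2 varied with A+T content over all members, as given below. A difference between these lists apart from composition was not tested. Oxidative phosphorylation genes had 1 of 89, ND-ASHI, a complex I subunit gene (rank 199), whose promoter is shared with Fum1. Aminoacyl-tRNA synthetase genes had 0 of 33 and proteasome genes 0 of 48, of which 5 and 2 had any reproducible peak. At 1.44% over all protein-coding genes, lists this short can hold 0.

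Among genes of stress and chromatin, heat shock and chaperone genes had 2 of 36 (25% of the 8 with any peak), Hsp83 (rank 131; 82, 239 and 82) and Hsp27 (rank 233; 269, 233 and 220). Insulator and architectural protein genes had 1 of 21, Cp190 (rank 146; 221, 112 and 205), which shares the site with CG4338. Polycomb and trithorax group genes had 1 of 32, ph-p (rank 45; 30, 43 and 53), with trx and osa holding members in their transcribed region instead. Trl and JIL-1, a histone kinase gene, of the insulator list likewise held members in introns (ranks 25 and 135). Of the genes with any reproducible peak, 14.3% of 7 insulator genes and 10% of 10 Polycomb and trithorax genes had a member. Over all genes this share was 10.1%.

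Genes of signalling had 2 of 74 with a member at the start site, Eip75B (rank 191; 326, 155 and 259) and spi, which encodes the EGF receptor ligand Spitz (rank 285; 590, 254 and 217). These 2 were 6.90% of the 29 signalling genes with any reproducible peak. Further members lay inside the genes Raf, Hr3, aos, fz, N, Mad and shn. Embryonic patterning genes had 0 of 41, the general transcription machinery 0 of 66, cell cycle and replication genes 0 of 41, and cytoskeletal and abundant housekeeping genes 0 of 28. In this order, 4, 13, 8 and 12 of them had any reproducible peak. Over all protein-coding genes 1.44% had a member, and lists this short can hold 0 at that share. With a window of 1000 bp in place of 500 bp, general transcription had 2, signalling 4 and cytoskeletal genes 1.

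The replicates found nearly every member. All 300 had a counterpart call within 250 bp in replicates 1 and 2 and 299 in replicate 3, and 188 were among the first 320 calls of all 3. Ranks ran from 16 to 892 in replicate 1, from 20 to 704 in replicate 2 and from 16 to 656 in replicate 3, with medians of 172.5, 170.5 and 170. Since the pool that chose the members is made of these replicates, high ranks in each are built into the choice. The exception was rank 300 in an intron of tsr, the cofilin gene, which ranked 222 and 332 in replicates 1 and 2, while the nearest call of replicate 3 was 547 bp away at rank 13528.

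Members differed in how evenly they ranked. The ratio of the worst to the best rank had a median of 1.87 and was 2 or less for 179 of the 299. It was smallest for chn, a zinc finger factor gene, at 106, 105 and 106, followed by E(spl)malpha-BFM of the Notch-responsive Enhancer of split complex at 301, 323 and 294, and HmgZ, an HMG-box protein gene, at 57, 62 and 56. The largest ratio was 8.78, for the promoter shared by Piezo, the mechanosensitive channel gene, and Acbp1, which ranked 81, 23 and 202. lncRNA:CR31840 (16, 126 and 36), CG3961 (686, 100 and 501), RpS27, sp3 (100, 482 and 74) and RpL7 followed. Replicate 2 held either the best or the worst rank in all 6 of these, and over the 300 members it held the best in 122 and the worst in 108.

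Rank differences between replicates varied with base composition. Of the 20 members under 55% A+T, 17 ranked lower in replicate 2 than in the geometric mean of replicates 1 and 3, and their median ranks were 120.5, 315.5 and 156 in replicates 1, 2 and 3. Of the 64 members with 75% A+T or more, 16 did so, and their median ranks were 225, 141 and 179. Over the 299 members the A+T content and the log2 ratio of the replicate 2 rank to the others had a Spearman correlation of −0.478 (Pearson r −0.557). The same ratio for replicate 1 had a Spearman correlation of 0.536 with A+T content, and that for replicate 3 one of 0.135. Each ratio sets 1 replicate against the others, so the opposite signs for replicates 1 and 2 are partly built in. The correlation for replicate 2 is across peaks that share libraries, and it was −0.497 in the lower-ranked peaks, so it was not particular to the members. Ranks in replicates 1 and 3 correlated at 0.828 (Spearman), those of replicate 2 with replicate 1 at 0.567 and with replicate 3 at 0.568.

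**Figure D5:**
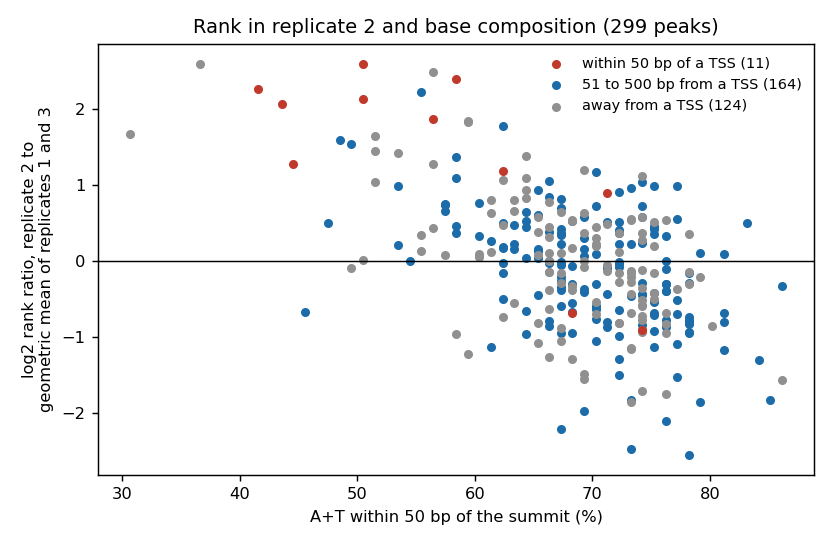
Each point is a member (299 with all 3 ranks). The x axis is A+T content within 50 bp of the summit, in percent, and the y axis the log2 ratio of its rank in replicate 2 to the geometric mean of its ranks in replicates 1 and 3, where positive values mean a lower place in replicate 2. Of the 20 members under 55% A+T, 17 lie above 0, as do 9 of the 11 members within 50 bp of a TSS.

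Interval widths changed along the list. Members were a median of 302 bp wide (100 to 739 bp), and 1 had the width of 390 bp. Of the lower-ranked peaks 2716 (70.2%) had exactly 390 bp, but of the 300 peaks next in rank 6 (2%) did, and their median width was 242 bp. How interval widths were set is not given in the sources used here, so positions above were taken from summits.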

How the data were processed

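ChIP-seq peak lists of 3 replicates, their pool and the reproducible (IDR) peaks were used, in dm6, per the labels. Signal, a value the authors deposited per peak with no stated normalization, served only to rank peaks. The deposited −log10 q value broke ties, and the summit offset is as the authors deposited it. Which aligner, peak caller and IDR cut-off were used is not given in the sources used here. Fragments were 200 to 800 bp, per the labels. Annotation was Ensembl 115 (BDGP 6.54) without transposable elements (18277 genes) and sequence the RefSeq genome. Shares were compared by Fisher's exact test, two-sided, with Benjamini-Hochberg adjustment within each family and a threshold of 0.05. Intervals are exact binomial (Clopper-Pearson, 95%) and cover counting error only. Counts used Python 3.11.15, scipy 1.17.1, numpy 2.4.6 and pandas 2.3.3, and the tests were run on simulated data first.

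Members and lists were chosen with earlier results of these data known, and sls was removed from the Polycomb and trithorax list afterwards, as it belongs to neither group. Of the list symbols, 19 found no match. Named members are ranks 21 to 32, 319 and 320, the 3 strongest per gene list, the 6 strongest in introns and between genes, the extremes of replicate ratio, close neighbours, the 4 strongest with a passing 8-mer, and classes of under 5 members. Others were named after their values were seen. Alternatives were the TSS window, other comparison ranks, motif windows and leaving out a replicate, for which the peaks were ranked by the mean rank in the others.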

Additional observations from a re-analysis of the deposited data

How the results depend on the processing

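Leaving out 1 replicate in turn kept 254 to 279 of the 300 members. The excess at start sites then ran from 16.3 to 17.8 points, the upstream excess from 10.4 to 12.7, the share within 50 bp from −14.6 to −7.70, divergent start sites from −4.47 to −1.78, and the X excess from 6.39 to 7.80, all on the same side of the threshold as with all replicates. Motifs past the threshold stayed at 0. Against the 300 peaks next in rank alone, no difference reported as passing in class, start-site arrangement or chromosome still passed: start sites (7.33 points), introns (−6), intergenic (−1.33), upstream (1.56), within 50 bp (−8.09) and X (7). Between 65 and 80% A+T, a range chosen after the data were seen, upstream (4.22) and within 50 bp (−5.45) did not pass, while 2 8-mers did. Among peaks at start sites X did not pass (5.83, a split not planned beforehand) and 0 8-mers did. With motif windows of 50 and 200 bp, 1 and 2 motifs passed. GAGAG turned from −1.55 points within 100 bp to 9.97 within 200 bp; counts by distance were lower than in other peaks at the summit and higher at 150 to 200 bp. The share at a start site passed with TSS windows of 250 and 1000 bp, with protein-coding start sites alone and with interval midpoints. Members with counterparts in all 3 replicates went from 99.7% to 98.3% at a matching distance of 100 bp. The unknown depth and the single pooled list limit all of these values. Some gene list counts moved: with a TSS window of 1000 bp the general transcription machinery went from 0 to 2, signalling from 2 to 4 and cytoskeletal genes from 0 to 1, and with the nearest TSS only translation factors went from 3 to 1 and insulator genes from 1 to 0.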
